A study of Mus musculus with 18 samples.

Results

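The transcripts described here are 9 mouse genes that cut or protect the extracellular matrix: the matrix metalloproteinases Mmp2, Mmp3, Mmp13 and Mmp14, the tissue inhibitors of metalloproteinases Timp1, Timp2 and Timp3, the urokinase plasminogen activator Plau and its receptor Plaur. They were chosen by symbol, as 9 of the 23420 gene rows of a count table, with earlier results of these data known. RNA was sequenced from NIH-3T3 cells, an immortalized line of mouse embryonic fibroblasts, in 6 groups of 3 libraries, 18 in all. The wild-type line (WT) and a line in which Nrf1 was knocked out with CRISPR/Cas9 (Nrf1-KO) each received the vehicle DMSO or the proteasome inhibitor carfilzomib (CFZ) at 200 nM, applied for 6 h in some cultures and for 24 h in others. How long the vehicle was applied, and whether the Nrf1-KO line is 1 clone, are not given in the sources used here. A difference between the lines therefore cannot be told apart from any other difference between these 2 cultures. The comparisons ask how each transcript responded to proteasome inhibition at each time, and whether loss of Nrf1, the transcription factor encoded by Nfe2l1 that drives proteasome genes when proteasomes are blocked, altered that response.

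Metalloproteinases are made as inactive precursors that are activated by removal of a propeptide, and TIMPs bind and block the active enzymes. MMP14 sits in the plasma membrane, where TIMP2 helps it to bind and activate the precursor of MMP2, a gelatinase. MMP3 (stromelysin) and MMP13 (collagenase) are kept low in resting fibroblasts and are induced by stress and cytokine signals through AP-1 factors. Urokinase, held at the cell surface by its receptor, converts plasminogen to plasmin, a broad protease that cuts fibrin and can activate metalloproteinases.

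The stretch just upstream of the transcription start is shown for 4 genes, Mmp13, Mmp3, Plaur and Timp2, because they are the genes of the 9 whose available windows held a match to a motif searched. Sequences are from RefSeq on GRCm38.p6, 250 bases ending at the base before the start, 5′ to 3′ on the gene's strand, with capitals at motif matches. The start is RefSeq's, and GENCODE, whose gene positions are given in the text, starts Timp2 farther upstream, so that the Timp2 window lies inside its GENCODE gene. Of the 9 genes, 7 had an entry, and Mmp2 and Plau did not. The motifs searched were the AP-1 element TGAGTCA on both strands, the core of the antioxidant response element TGACNNNGC on both strands, and the TATA box TATAAA on the given strand. The first and second motifs can overlap, although none did in these windows.
Mmp13, chr9:7272264-7272513, + strand: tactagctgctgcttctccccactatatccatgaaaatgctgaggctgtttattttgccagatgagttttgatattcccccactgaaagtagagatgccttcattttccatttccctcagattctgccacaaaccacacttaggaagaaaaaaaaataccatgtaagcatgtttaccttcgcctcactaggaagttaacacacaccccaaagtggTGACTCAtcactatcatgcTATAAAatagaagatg
Mmp3, chr9:7445572-7445821, + strand: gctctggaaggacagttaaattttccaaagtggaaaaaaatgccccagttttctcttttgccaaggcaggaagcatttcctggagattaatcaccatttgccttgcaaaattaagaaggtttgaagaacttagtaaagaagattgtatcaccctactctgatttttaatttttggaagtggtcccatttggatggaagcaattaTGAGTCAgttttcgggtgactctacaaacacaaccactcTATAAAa
Plaur, chr7:24462233-24462482, + strand: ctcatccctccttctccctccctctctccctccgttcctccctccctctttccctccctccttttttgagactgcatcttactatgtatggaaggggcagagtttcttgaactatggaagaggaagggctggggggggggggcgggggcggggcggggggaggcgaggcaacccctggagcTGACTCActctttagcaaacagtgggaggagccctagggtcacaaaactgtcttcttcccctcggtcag
Timp2, chr11:118355412-118355661, - strand: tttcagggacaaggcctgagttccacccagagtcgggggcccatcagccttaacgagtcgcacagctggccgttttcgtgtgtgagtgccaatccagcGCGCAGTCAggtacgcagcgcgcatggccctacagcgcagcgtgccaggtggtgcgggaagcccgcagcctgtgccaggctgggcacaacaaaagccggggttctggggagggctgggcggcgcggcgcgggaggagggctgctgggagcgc
An AP-1 match lay at bases -35 to -29 of Mmp13, -46 to -40 of Mmp3 and -69 to -63 of Plaur, counted back from the start. Among 32851 promoters of that length, 4.46% held one. Mmp13 and Mmp3 also held a TATA box match, at -16 to -11 and at -7 to -2, as did 7.59% of all promoters anywhere in the window. All these positions depend on the RefSeq start. Timp2 held a match to the antioxidant response element core at -152 to -144, as did 10.2% of all promoters. No match to these letters was found in the windows of Mmp14, Timp1 or Timp3. Each match is a description of the letters, with no binding measured here.

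Library totals ran from 8333148 to 23917081 counts with a median of 14419832, and each of the 18 libraries was closest in its profile to a library of its own group. Nfe2l1 transcript averaged 447 ± 9.86 CPM (counts scaled to library size; SD, n = 3) in WT DMSO and 180 ± 5.27 in Nrf1-KO DMSO, and was lower in Nrf1-KO than in WT at both CFZ times (log2 difference -0.62 ± 0.03 SE at 6 h and -1.47 ± 0.03 at 24 h). It rose at 6 h in both lines, to 642 CPM in WT (log2 change 0.52 ± 0.03 SE) and to 419 in Nrf1-KO (1.22 ± 0.03). At 24 h it averaged 564 and 204 CPM. These libraries measure transcript and do not show the level of the protein. The 10 fibroblast markers summed to between 28081 and 36298 CPM in the DMSO and 6 h libraries, 8359 to 8633 in the 24 h libraries of WT, and 11549 to 13629 in those of Nrf1-KO. All 10 were detected in every group. Of the markers of other cell types, 6 of 7 macrophage genes were in the table, summing to 15.3 to 27.6 CPM in the DMSO and 6 h libraries, 43.3 to 47.2 in the 24 h libraries of WT, and 63.6 to 64.1 in those of Nrf1-KO. Of the macrophage genes tested, 3 were called higher and 1 lower at 24 h in each line. Of all genes tested, 43.2% were higher and 40.5% lower in WT, and 44.4% and 41.1% in Nrf1-KO. Cd14 went from a mean of 7.82 to 29.3 in WT and from 10.2 to 53.1 in Nrf1-KO, while Lyz2 went from 11.1 to 6.22 and from 14.9 to 4.26. The defining leukocyte gene Ptprc was at 0 in every WT group and between 0.891 and 1.22 mean CPM in the Nrf1-KO groups. The 7 epithelial markers, nearly all Krt14, summed to 127 to 151 CPM in the WT libraries and 57.8 to 87.4 in those of Nrf1-KO. Epcam, Krt18 and Cldn4 were at 0, and the 6 endothelial markers summed to at most 5.05 CPM. These shifts ran with the 24 h results below, and their part in them was not tested. In bulk RNA, fewer cells of a kind and less RNA per cell cannot be told apart.

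Levels below are CPM scaled by the trimmed mean of M-values (TMM). Fold changes, standard errors (SE) and adjusted p-values came from edgeR's quasi-likelihood test over 11762 genes, and "called" means an adjusted p under 0.05. Of the 9 genes, 8 passed the count filter (not Mmp3, and Mmp13 only through its counts in Nrf1-KO at 24 h). Counts of calls are therefore over the 7 others, without Mmp3 and Mmp13. Against DMSO, 2 of the 7 were called higher and 5 lower in WT after 6 h, where 35.6% of all genes tested were higher and 36.2% lower. After 24 h it was 1 and 5 in WT (43.2% and 40.5% of all genes). In Nrf1-KO, 2 were higher and 5 lower after 6 h (34.5% and 35% of all genes), and 2 higher and 4 lower after 24 h (44.4% and 41.1%). Since most genes were called, a call alone says little, and the sizes below are read against the spread of all genes.

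**Figure D1:**
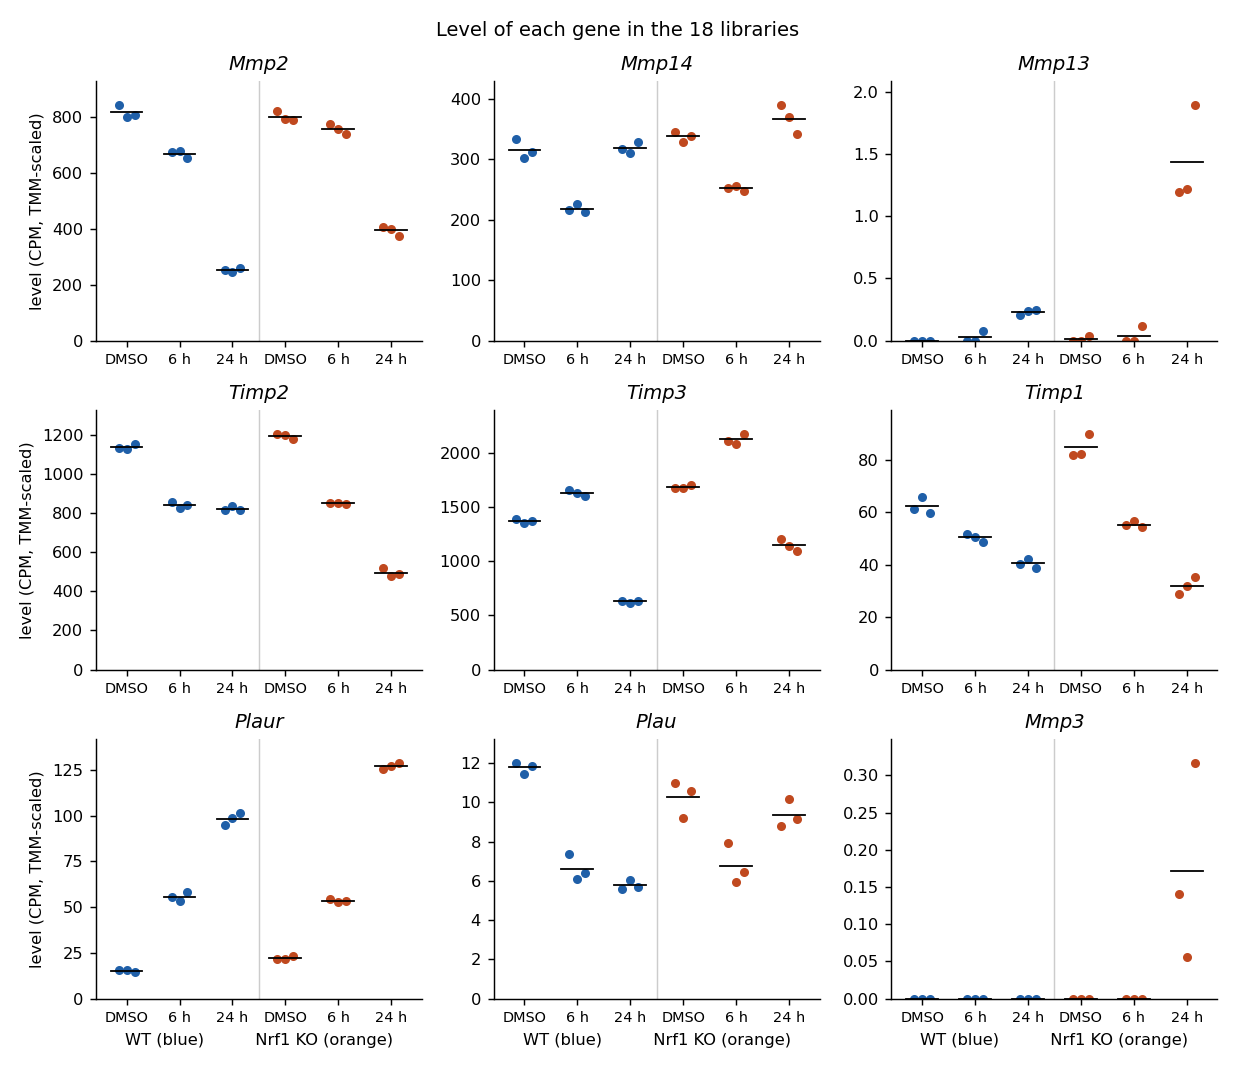
Level of each of the 9 genes in CPM (linear axes from 0, a separate scale per gene) in the 18 libraries, in WT (blue) and Nrf1-KO (orange) cells with DMSO or 200 nM CFZ for 6 h or 24 h. Points are libraries and bars are means of 3. Plaur climbed at each time in both lines, Mmp2 and Timp3 were lowest at 24 h in WT, Timp2 and Timp1 were lowest at 24 h in Nrf1-KO, and Mmp13 and Mmp3 left the floor mainly in Nrf1-KO at 24 h.

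Mmp2, on chromosome 8 (GRCm38, 92827291 to 92853420), encodes the gelatinase that cuts denatured collagen and basement membrane collagen. It fell steeply in WT cells by 24 h and less in Nrf1-KO cells. In WT, the 3 libraries read 844, 801 and 807 CPM with DMSO, 674, 677 and 652 at 6 h and 251, 244 and 260 at 24 h. In Nrf1-KO they read 821, 794 and 788 with DMSO, 776, 757 and 739 at 6 h and 407, 401 and 375 at 24 h. The groups of WT did not overlap at any time, every Nrf1-KO library at 24 h lay above every WT library at 24 h, and the lines overlapped with DMSO. In WT the 6 h level differed from DMSO by -0.29 ± 0.04 SE on the log2 scale (adjusted p = 9.78e-09). By 24 h it was 3.25-fold lower (-1.70 ± 0.04, 7.24e-28). At 24 h this put Mmp2 at the 5.8th percentile of all genes tested. In Nrf1-KO the 6 h change was -0.08 ± 0.04 (adjusted p = 0.0413), and by 24 h Mmp2 was 2.03-fold lower (-1.02 ± 0.04, 1.84e-22). The small 6 h difference in Nrf1-KO was not called without DMSO replicate 1 (-0.06, adjusted p = 0.157), DMSO replicate 2 (-0.09, 0.0568), 6 h replicate 2 (-0.08, 0.0903) or 6 h replicate 3 (-0.06, 0.158). Tested directly, the response of Nrf1-KO was higher than that of WT by 0.21 ± 0.05 at 6 h (adjusted p = 0.000981) and by 0.68 ± 0.05 at 24 h (6.29e-13).

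Mmp14, on chromosome 14 (54431612 to 54445364), encodes the membrane-bound activator of MMP2. It dipped at 6 h and was back near its DMSO level at 24 h in both lines. WT libraries read 333, 301 and 312 CPM with DMSO, 216, 226 and 212 at 6 h and 318, 310 and 328 at 24 h. Nrf1-KO libraries read 346, 329 and 339 with DMSO, 252, 256 and 248 at 6 h and 391, 369 and 342 at 24 h. In each line the 6 h libraries lay below all others, while the DMSO and 24 h libraries overlapped. The 6 h fall was -0.53 ± 0.04 on the log2 scale in WT (adjusted p = 8.97e-13) and -0.42 ± 0.04 in Nrf1-KO (1.93e-10), and the return from 6 h to 24 h was 0.55 ± 0.04 in WT and 0.54 ± 0.04 in Nrf1-KO (5.60e-13 and 3.50e-13). The difference between 24 h and DMSO depended on the scaling. In WT it was 0.01 ± 0.04 (adjusted p = 0.772) but -0.12 (0.00589) with upper-quartile scaling. In Nrf1-KO it was called at 0.12 ± 0.04 (0.00706), but it was -0.06 (0.155) when counts were scaled by library size alone and 0.01 (0.799) by the upper quartile. It was not called without 24 h replicate 1 (0.04, adjusted p = 0.306) or 24 h replicate 2 (0.08, 0.109). No difference between the responses of the 2 lines was called (0.11 ± 0.06 at both times, adjusted p = 0.154 at 6 h and 0.110 at 24 h). The 24 h one passed with upper-quartile scaling (0.13, adjusted p = 0.0407) and when WT DMSO replicate 2 (0.14, 0.0477) or Nrf1-KO 24 h replicate 3 (0.15, 0.0121) was left out.

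Mmp13 and Mmp3, the collagenase and stromelysin genes, lie near each other on chromosome 9 (7272514 to 7283331 and 7445822 to 7455975). Both were almost without counts except after 24 h of CFZ, and mostly in Nrf1-KO cells. Summed over 3 libraries, Mmp13 had 0 counts with DMSO, 1 after 6 h and 10 after 24 h in WT, and 1, 1 and 69 in Nrf1-KO. In single libraries the 24 h levels were 0.203, 0.240 and 0.248 CPM in WT and 1.20, 1.22 and 1.90 CPM in Nrf1-KO, so the 24 h libraries of each line lay above all its others and the 2 lines did not overlap at 24 h. Pooled, the level was 1.44 CPM in Nrf1-KO at 24 h (exact 95% Poisson interval 1.12 to 1.82) and 0.234 in WT at 24 h (0.112 to 0.431). The ratio of Nrf1-KO to WT at 24 h was 6.13 (95% interval 3.14 to 13.4). Against the single count with DMSO, the Nrf1-KO ratio at 24 h was 81.8 with an interval of 14.2 to 3276. In WT, taking the measured level against 3 counts over the group as the floor, Mmp13 was at least 4.04-fold higher at 24 h than with DMSO. This bound leaves out the counting error of the 10 counts themselves. With 0 and 1 counts in the DMSO groups, a difference between the lines in the response could not be resolved at this depth.

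Mmp3 had 0 counts in 15 libraries and 8 in the 3 Nrf1-KO libraries at 24 h, at 0.141, 0.0555 and 0.317 CPM. The pooled level there was 0.167 CPM (95% interval 0.0719 to 0.328). Against the same floor, this measured level was at least 3.16-fold higher than in Nrf1-KO DMSO and at least 2.37-fold higher than in WT at 24 h, bounds that leave out the counting error of the 8 counts themselves. The floor of 3 counts stood at 0.0580 CPM in WT DMSO and 0.0703 CPM in WT at 24 h, and the upper ends of the exact 95% intervals of 0 counts at 0.0713 and 0.0865 CPM. Intervals and floors cover counting error only. Mmp13 and Mmp3 are the 2 genes whose upstream windows above hold both an AP-1 and a TATA box match, while Plaur holds an AP-1 match alone. Whether these matches had a part in the levels was not tested.

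The inhibitors divided into patterns that differed by line. Timp2 (chromosome 11, 118301069 to 118355740), the TIMP that takes part in MMP2 activation, fell at 6 h in both lines, and after that fell further in Nrf1-KO. WT libraries read 1133, 1130 and 1151 CPM with DMSO, 855, 825 and 840 at 6 h and 817, 835 and 816 at 24 h. Nrf1-KO libraries read 1206, 1199 and 1181 with DMSO, 851, 852 and 848 at 6 h and 522, 477 and 486 at 24 h. The 6 h and 24 h libraries of WT overlapped, and the 24 h libraries of Nrf1-KO lay below every other library. Log2 changes against DMSO at 6 h were -0.44 ± 0.03 in WT and -0.49 ± 0.03 in Nrf1-KO (adjusted p = 1.81e-13 and 1.50e-14). At 24 h they were -0.47 ± 0.03 and -1.27 ± 0.03 (1.44e-14 and 6.59e-26). The responses of the lines differed by -0.80 ± 0.05 at 24 h (adjusted p = 9.55e-16), against -0.05 ± 0.05 at 6 h (0.387). From 6 h to 24 h the change was -0.03 ± 0.03 in WT (0.416) and -0.78 ± 0.03 in Nrf1-KO (7.88e-20). With DMSO the lines did not differ past the threshold (0.07 ± 0.03, adjusted p = 0.0619), although Nrf1-KO libraries were all the higher and it was called by DESeq2 (0.08, 0.0145), after upper-quartile (0.08, 0.0244) or library-size scaling (0.12, 0.00277), and in a fit of the compared groups only (0.09, 0.0163).

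Timp3 (chromosome 10, 86300372 to 86349506), the TIMP that stays bound to the matrix, rose modestly at 6 h and fell by 24 h, less so in Nrf1-KO. WT libraries read 1391, 1353 and 1369 CPM with DMSO, 1652, 1629 and 1597 at 6 h and 630, 618 and 637 at 24 h. Nrf1-KO libraries read 1676, 1670 and 1706 with DMSO, 2112, 2081 and 2175 at 6 h and 1204, 1138 and 1095 at 24 h. None of the 6 groups overlapped. The log2 change at 6 h was 0.25 ± 0.03 in WT and 0.33 ± 0.03 in Nrf1-KO (adjusted p = 9.21e-08 and 2.07e-10). At 24 h it was -1.13 ± 0.03 in WT, 2.18-fold lower, and -0.56 ± 0.03 in Nrf1-KO, 1.47-fold lower (4.39e-24 and 3.21e-16). The 24 h responses differed by 0.57 ± 0.05 (6.25e-12), and the 6 h responses by 0.09 ± 0.05 (0.146), which passed when scaled by the upper quartile (0.12, 0.0367). Timp3 lies inside Syn3 on the opposite strand, with 21.3% of its exonic bases shared, and whether the counting used strand is not given in the sources used here. Syn3 itself was between 0.0678 and 1.46 mean CPM in the 6 groups.

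Timp1 (chromosome X, 20870166 to 20874735), the stress- and serum-responsive TIMP, was called higher in Nrf1-KO with DMSO and lower in Nrf1-KO after 24 h. WT libraries read 61.2, 65.8 and 59.8 CPM with DMSO, 51.9, 50.5 and 48.8 at 6 h and 40.1, 42.3 and 38.8 at 24 h. Nrf1-KO libraries read 81.9, 82.3 and 89.9 with DMSO, 54.9, 56.5 and 54.2 at 6 h and 28.9, 31.7 and 35.2 at 24 h. No 2 groups overlapped: Nrf1-KO was above WT with DMSO and below it at 24 h. Against WT, Nrf1-KO was higher by 0.45 ± 0.05 with DMSO (adjusted p = 2.75e-09) and lower at 24 h (-0.34 ± 0.06, 1.76e-05). The 6 h difference of 0.14 ± 0.06 was at the threshold (0.0477), and leaving out any 1 of the 6 libraries took it past (adjusted p from 0.0552 to 0.185, log2 difference from 0.10 to 0.15). The fall from DMSO was -0.31 ± 0.05 at 6 h and -0.62 ± 0.06 at 24 h in WT, and -0.62 ± 0.05 and -1.41 ± 0.05 in Nrf1-KO, all called (adjusted p at most 9.85e-06). The responses differed by -0.32 ± 0.08 at 6 h (0.00132) and by -0.79 ± 0.08 at 24 h (4.78e-10). Timp1 lies inside Syn1 on the opposite strand with no exonic base shared.

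**Figure D2:**
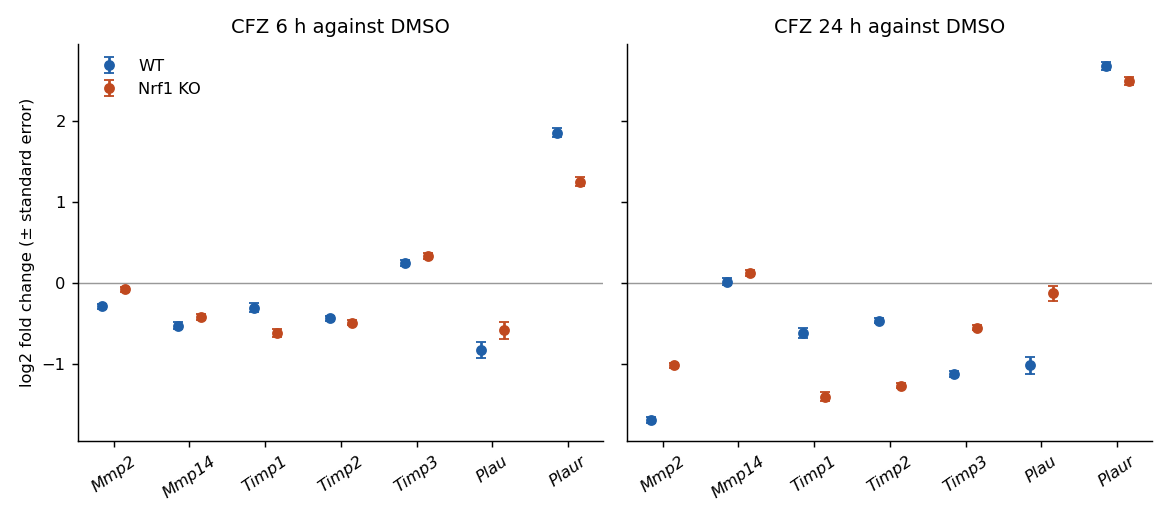
Log2 fold change against DMSO at 6 h (left) and 24 h (right) for 7 genes in WT (blue) and Nrf1-KO (orange), with bars of 1 standard error from edgeR. Mmp13 and Mmp3 are left out for their low counts. At 24 h Mmp2, Timp3 and Plau lie higher in Nrf1-KO (differences 0.68, 0.57 and 0.89) and Timp1 and Timp2 lie lower (-0.79 and -0.80).

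In the plasminogen pair, the receptor rose at both times in both lines, while its ligand fell at 6 h in both and at 24 h was called lower in WT alone. Plaur (chromosome 7, 24462484 to 24475968), which anchors urokinase to the cell surface, was the most strongly induced gene among the 7 with ample counts. WT libraries read 15.8, 15.7 and 14.4 CPM with DMSO, 55.7, 53.1 and 58.6 at 6 h and 94.7, 98.8 and 102 at 24 h. Nrf1-KO libraries read 21.5, 21.9 and 23.6 with DMSO, 54.6, 53.0 and 53.2 at 6 h and 126, 127 and 129 at 24 h. Within each line the 3 conditions did not overlap. Nrf1-KO started higher and ended higher, while at 6 h the lines overlapped. In WT the rise was 3.63-fold at 6 h (1.86 ± 0.06 on the log2 scale, adjusted p = 1.98e-23) and 6.42-fold at 24 h (2.68 ± 0.05, 3.18e-29), the 98.9th and 98.6th percentiles of all genes. In Nrf1-KO it was 2.39-fold at 6 h (1.25 ± 0.05, 2.42e-19) and 5.66-fold at 24 h (2.50 ± 0.05, 5.64e-30). The 6 h response of Nrf1-KO was lower by 0.61 ± 0.08 (2.70e-07). The 24 h difference of -0.18 ± 0.07 was called (0.0336) but not with DESeq2 (-0.18, 0.0782) or upper-quartile scaling (-0.16, 0.0723). It was also lost without WT DMSO replicate 3 (-0.15, adjusted p = 0.121), WT 24 h replicate 3 (-0.16, 0.0800) or Nrf1-KO DMSO replicate 3 (-0.13, 0.168). Nrf1-KO exceeded WT by 0.55 ± 0.06 with DMSO (9.43e-09) and 0.37 ± 0.04 at 24 h (5.32e-10).

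Plau (chromosome 14, 20836660 to 20843385), the protease itself, was a low transcript. WT libraries read 12.0, 11.5 and 11.9 CPM with DMSO, 7.35, 6.12 and 6.40 at 6 h and 5.59, 6.05 and 5.70 at 24 h. Nrf1-KO libraries read 10.96, 9.23 and 10.6 with DMSO, 7.92, 5.94 and 6.47 at 6 h and 8.80, 10.1 and 9.13 at 24 h. In WT the level stayed down at 24 h, whereas in Nrf1-KO the 24 h libraries overlapped those with DMSO and lay above all at 6 h. The log2 change in WT was -0.83 ± 0.10 at 6 h and -1.02 ± 0.11 at 24 h, 2.03-fold lower (adjusted p = 2.09e-08 and 2.21e-10). In Nrf1-KO it was -0.59 ± 0.11 at 6 h (1.82e-05) and -0.13 ± 0.09 at 24 h (0.193), the latter called when scaled by the upper quartile (-0.24, 0.0192) or by library size alone (-0.31, 0.00245) and without 24 h replicate 2 (-0.23, 0.0460). From 6 h to 24 h Plau rose by 0.46 ± 0.11 in Nrf1-KO (0.000559), against -0.19 ± 0.13 in WT (0.183). The responses differed by 0.89 ± 0.14 at 24 h (2.90e-06) and by 0.24 ± 0.15 at 6 h (0.226).

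**Figure D3:**
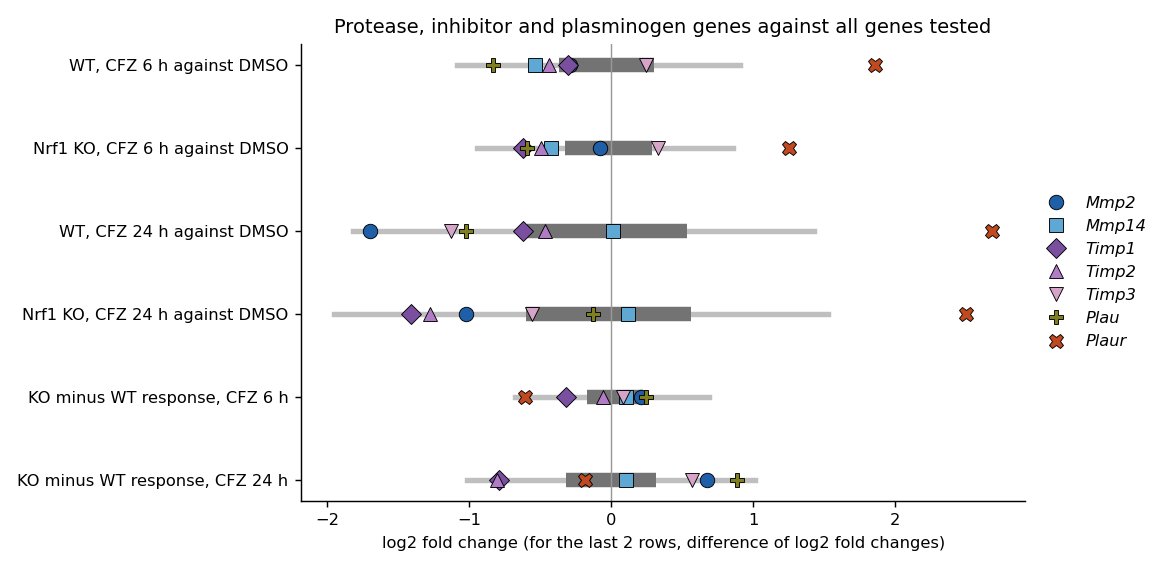
Log2 fold changes of 7 genes (symbols) beside all 11762 genes tested (dark bar, middle 50%; light bar, 5th to 95th percentile), for CFZ against DMSO in each line and for the difference between the lines' responses. Plaur lies beyond the 95th percentile in the 4 CFZ comparisons, and the other 6 lie within the light bars.

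With DMSO, edgeR called 4 of the 7 genes with ample counts higher in Nrf1-KO than in WT and 0 lower, where 25.7% of all genes were higher and 29.1% lower. At an unadjusted p under 0.05, 1 was lower (Plau), which was called without Nrf1-KO replicate 1 (-0.23, adjusted p = 0.0417), and DESeq2 called 0 lower. After 6 h of CFZ it was again 4 higher and 0 lower (30.5% and 30.8% of all genes), with 0 lower at an unadjusted p under 0.05 and 0 by DESeq2. After 24 h it was 5 higher and 2 lower (35.6% and 36.4% of all genes). The median of the 7 was 0.10 with DMSO, 0.14 at 6 h and 0.37 at 24 h on the log2 scale, against -0.02, 0.0036 and -0.0031 for all genes. With DMSO the 4 were Plaur, Timp1, Timp3 (0.30 ± 0.03, adjusted p = 5.54e-09) and Mmp14 (0.10 ± 0.04, 0.0412). The Mmp14 call was lost without WT replicate 2 (0.07, 0.227), WT replicate 3 (0.09, 0.120), Nrf1-KO replicate 1 (0.08, 0.138) or Nrf1-KO replicate 3 (0.10, 0.0859). At 6 h the 4 were Timp3, Mmp14, Mmp2 and Timp1. The Timp1 call (0.14 ± 0.06, adjusted p = 0.0477) was lost when any 1 of the 6 libraries was left out, leaving 3. At 24 h the 2 lower genes were Timp1 and Timp2 (-0.73 ± 0.03, 5.92e-19). Of the higher ones the largest differences were Timp3 (0.87 ± 0.03, 1.55e-20), Plau (0.69 ± 0.11, 2.04e-06) and Mmp2 (0.65 ± 0.04, 2.69e-16). The response to CFZ differed between the lines for 3 of the 7 at 6 h, where 38.3% of all genes did, and for 6 of the 7 at 24 h, where 59.8% did. At 24 h the median absolute difference was 0.68 over the 7 and 0.32 over all genes. Between 6 h and 24 h, 5 of the 7 were called in WT (72.4% of all genes) and 7 of the 7 in Nrf1-KO (77% of all genes).

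To set genes beside each other, CPM was divided by kilobases of merged exon. The order of genes, and the sums, ratios and shares below, depend on these lengths, 8.144 kb for Timp3 and 3.896 kb for Timp2. In CPM, Timp3 was above Timp2 with DMSO (1371 against 1138 in WT, 1684 against 1196 in Nrf1-KO). On the per-kb scale Timp2 led with DMSO, at 292 ± 2.98 CPM per kb in WT and 307 ± 3.27 in Nrf1-KO, followed by Mmp2 (242 ± 6.96 and 238 ± 5.20) and Timp3 (168 ± 2.33 and 207 ± 2.34). Mmp14 was at 52.9 ± 2.71 and 56.7 ± 1.36, and Plaur and Plau were below 10 in both. The 3 TIMPs together exceeded the 4 MMPs in every library. Their ratio went from 1.80 ± 0.06 with DMSO to 2.01 ± 0.04 at 6 h and 2.61 ± 0.10 at 24 h in WT. In Nrf1-KO it went from 2.07 ± 0.05 to 2.03 ± 0.06 and then down to 1.70 ± 0.06, so the lines moved apart in opposite directions by 24 h without overlap. The summed MMP level fell to 128 ± 3.80 in WT and 179 ± 8.74 in Nrf1-KO at 24 h, from 295 ± 9.63 and 294 ± 6.24. The summed TIMP level fell to 334 ± 3.48 and 304 ± 9.16 from 531 ± 0.38 and 609 ± 4.38. These are transcript levels, and protein or activity was not measured.

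**Figure D4:**
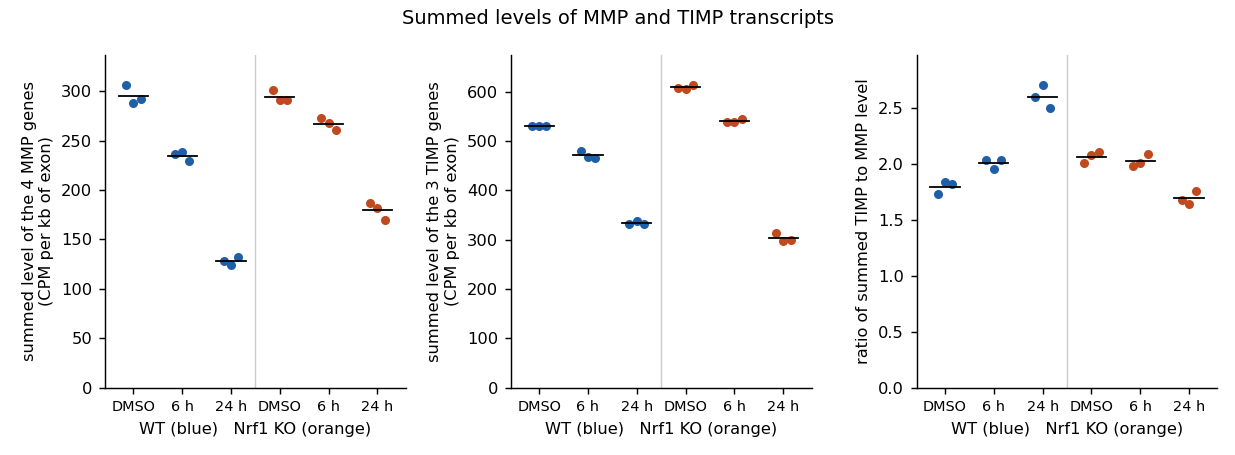
Summed level of Mmp2, Mmp3, Mmp13 and Mmp14 (left) and of Timp1, Timp2 and Timp3 (middle), in CPM per kb of exon, and their ratio (right), per library (points) with the mean of 3 (bars). At 24 h the ratio is 2.51 to 2.71 in the WT libraries and 1.64 to 1.76 in the Nrf1-KO libraries.

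The makeup of each sum changed as well. Timp3 was 31.7% of the TIMP sum in WT DMSO, 42.3% at 6 h and 23.1% at 24 h, whereas in Nrf1-KO it went from 34.0% to 48.2% and stayed at 46.3%. Mmp2 made up 82.1% of the MMP sum in WT DMSO and 58.3% at 24 h (80.7% and 65.3% in Nrf1-KO), the remainder being nearly all Mmp14. The ratio of Timp2 to Mmp14 went from 5.53 ± 0.28 to 3.95 ± 0.16 in WT and from 5.42 ± 0.13 to 2.06 ± 0.10 in Nrf1-KO by 24 h. The ratio of Plaur to Plau rose from 1.18 ± 0.07 to 7.66 ± 0.73 and 15.4 ± 0.69 in WT, and from 1.98 to 7.25 ± 0.93 and 12.3 ± 0.88 in Nrf1-KO.

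By the root mean square (RMS) difference of log2 profiles over the 18 libraries, the pairs most alike among the 8 genes were Timp1 with Timp2 (0.19), Mmp2 with Timp3 (0.27) and Mmp14 with Plau (0.33). The RMS difference is also small between genes that vary little. A flat profile would lie at 0.26 from Mmp14, closer than Plau, so that pair says little. Among 10253 other genes, the closest profiles to Mmp2 were those of Col4a6, a basement membrane collagen chain (0.11), Ltbp4, a latent TGF-beta binding protein (0.11), and Acsl3 (0.13), where the median candidate was at 0.71. Closest to Timp3 were Mid1ip1, Ets2 and Bhlhe40 (0.12 each). Closest to Plaur were Hspa5, the chaperone BiP of the endoplasmic reticulum, Ier5 (both 0.22) and Ifrd1 (0.23), at a median of 1.09. Mmp13 was nearest to Ptgr1 (0.36), Gsto1 and Sat1, Mmp14 to Lgals3bp, Inppl1 and Hhat (0.09 each), Timp1 to Gtf2a2, Srpx2 and Cyb5r3, Timp2 to B230219D22Rik, Adk and Mgat2, and Plau to Erf, Msl1 and Zfp637. Mmp13 had at most 1 count in each DMSO and 6 h library. Its log2 level there was set mainly by the count of about 2 added before the logarithm, so its nearest profiles say little. These likenesses describe profiles over shared libraries, with no test.

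Of the other 20 MMP and TIMP genes, 7 had enough counts to test. In WT at 24 h 1 was higher, 3 lower and 3 not called, where 43.2% of all genes tested were higher and 40.5% lower. In Nrf1-KO 3 were higher, 3 lower and 1 not called (44.4% and 41.1% of all genes). With upper-quartile scaling the list had 1 higher and 5 lower in WT, and 2 higher and 3 lower in Nrf1-KO. A list count near the shares of all genes, here and below, says little about the list. Mmp11, stromelysin-3, was at 42.7 ± 1.93 CPM in WT DMSO, 26.9 at 6 h and 20.5 at 24 h, and in Nrf1-KO at 27.6, 34.3 and 21.9. Mmp28, epilysin, went from 20.8 to 14.4 and 11.5 in WT and from 21.9 to 31.9 and 22.1 in Nrf1-KO. At 6 h both fell in WT and rose in Nrf1-KO, a difference of 0.99 ± 0.09 for Mmp11 (adjusted p = 1.06e-10) and 1.08 ± 0.11 for Mmp28 (1.79e-09). Mmp19 was at 9.44, 10.1 and 8.26 in WT and 23.6, 17.5 and 18.5 in Nrf1-KO, higher in Nrf1-KO in all 3 conditions (1.30 ± 0.08, 0.76 ± 0.10 and 1.14 ± 0.09). Mmp9, the second gelatinase, was named after its values were seen. It rose in WT from 0.140 ± 0.09 to 4.65 ± 0.21 at 6 h and 12.5 ± 1.54 CPM at 24 h, and in Nrf1-KO from 0.181 ± 0.07 to 0.803 ± 0.17 and 0.772 ± 0.29. The WT and Nrf1-KO libraries did not overlap at either CFZ time, and the 24 h responses differed by -4.38 ± 0.79 (1.81e-05). Its direction between the lines at 24 h was thus the reverse of that of Mmp2 and Mmp13.

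Among 14 partners of the plasminogen system 9 were tested. In WT at 24 h 3 rose, 5 fell and 1 was not called (43.2% of all genes rose and 40.5% fell). In Nrf1-KO 2 rose and 7 fell (44.4% and 41.1% of all genes). Plat, the tissue plasminogen activator, fell at 6 h and rose past its starting level at 24 h, from 47.6 ± 1.74 to 12.0 ± 0.54 and 88.5 ± 2.83 CPM in WT and from 68.1 to 20.4 and 96.4 in Nrf1-KO. The plasminogen-binding pair Anxa2 and S100a10 fell at 24 h (log2 changes of -1.06 and -0.65 in WT and -1.52 and -0.89 in Nrf1-KO). Lrp1, which clears protease and inhibitor complexes, fell at 24 h in both lines (-0.75 ± 0.13 and -0.68 ± 0.14), as did the urokinase receptor-associated Mrc2 (-0.72 ± 0.06 and -0.44 ± 0.05). The plasminogen receptor gene Plgrkt had 24 h changes of opposite sign, 0.16 ± 0.05 in WT and -0.38 ± 0.06 in Nrf1-KO, although the WT rise was not called after upper-quartile scaling (0.03, adjusted p = 0.659). The 24 h log2 change of Thbd, the thrombin cofactor, was -0.07 ± 0.04 (0.129) in WT, where upper-quartile scaling gave a called fall (-0.20, 2.33e-05), and -0.80 ± 0.04 in Nrf1-KO.

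Most genes for matrix substrates fell. Of 20 matrix substrate genes, all tested, 17 fell and 1 rose at 24 h in WT and 17 fell and 3 rose in Nrf1-KO, with median log2 changes of -1.66 and -1.15 against 0.02 and 0.03 for all genes. Eln (elastin) went from 560 ± 18.1 to 2.11 ± 0.49 CPM in WT and from 122 to 0.848 in Nrf1-KO, and Col3a1 from 1593 to 114 and from 1338 to 383. Lamb1 rose in both (0.30 ± 0.07 and 0.70 ± 0.07), and Tnc was at -0.04 ± 0.09 in WT (0.700) and rose in Nrf1-KO (1.28 ± 0.09). Of 16 tested ADAM and ADAMTS genes, 4 rose and 8 fell in WT at 24 h and 6 rose and 9 fell in Nrf1-KO. Beside this list and the matrix substrates, 43.2% of all genes rose and 40.5% fell in WT, and 44.4% and 41.1% in Nrf1-KO. Adamts2, a procollagen propeptidase, and Adamts5, an aggrecanase, fell (-2.46 ± 0.06 and -2.40 ± 0.04 in WT, -1.61 ± 0.06 and -1.50 ± 0.04 in Nrf1-KO). Adamts4, the other aggrecanase, rose from 1.90 to 18.1 CPM in WT and from 1.62 to 60.1 in Nrf1-KO, a difference in response of 1.97 ± 0.21 (2.06e-09), and Adam19 rose by 0.43 ± 0.06 and 0.89 ± 0.05.

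Of 9 tested activators and inhibitors of MMPs, 1 rose and 5 fell in WT at 24 h (43.2% of all genes rose and 40.5% fell). In Nrf1-KO 2 rose and 5 fell (44.4% and 41.1% of all genes). With upper-quartile scaling 8 fell in WT and 7 in Nrf1-KO. Pcolce, the procollagen C-proteinase enhancer, fell from 394 to 13.7 CPM in WT and from 551 to 22.6 in Nrf1-KO, and Thbs2 fell too (log2 changes of -1.33 and -1.47). Cd44, a docking site for surface MMPs, rose by 1.53 ± 0.04 and 1.26 ± 0.04. Bsg, the MMP inducer EMMPRIN, was at 0.03 ± 0.03 in WT (0.356; -0.10 and called, 0.00891, when scaled by the upper quartile) and -0.42 ± 0.03 in Nrf1-KO. The 11 AP-1 and Ets factors, of separate families known to act on MMP, Plau and Plaur promoters, were all tested. Beside the same shares of all genes, 7 rose and 4 fell in WT at 24 h, and 8 rose and 2 fell in Nrf1-KO. Fosl1 went from 6.43 to 92.1 and 67.4 CPM in WT and from 14.8 to 56.6 and 54.2 in Nrf1-KO, with 6 h responses that differed by -1.92 ± 0.11 on the log2 scale (4.21e-15). Etv4 rose at 24 h (2.07 ± 0.13 and 0.92 ± 0.09), Ets2 fell (-0.94 ± 0.05 and -0.51 ± 0.05), and Jund fell in WT (-0.61 ± 0.04) and rose in Nrf1-KO (0.32 ± 0.04).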

How the data were processed

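Poly(A) RNA of 18 NIH-3T3 libraries (3 described as biological replicates for each of 6 groups) was sequenced with a stranded kit. The authors aligned reads with STAR within RNA Express and deposited 1 table of raw counts, whole reads per gene symbol, with no normalization. The genome build, annotation, versions and use of strand are not given in the sources used here, so reads in overlapping genes may have been assigned in ways that cannot be checked. Samples were grouped by their titles, which also give the replicate numbers. They were matched to the columns of counts by the column names in their descriptions.

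Counts were filtered with filterByExpr (minimum count 10, minimum total 15), leaving 11762 of 23420 genes (6577 had no count), scaled by TMM and tested with edgeR 4.0.16 in R 4.3.3 (glmQLFit, glmQLFTest), with 1 model of 6 groups and 11 comparisons, Benjamini-Hochberg adjustment over all genes tested, and calls at 0.05. The common biological coefficient of variation was 3.13%. Library totals of 8333148 to 23917081 set the precision. For low counts, exact Poisson intervals (95%) and a floor of 3 counts per group were used. No 2 libraries agreed within sampling noise (chi-square per degree of freedom of at least 1.44 between replicates). If the replicates share a culture, the p-values measure technical spread only.

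Exon lengths, positions and overlaps were taken from GENCODE M21 (GRCm38), which need not be the authors' annotation, and promoters from RefSeq (GRCm38.p6). Alternatives were DESeq2 1.42.0, upper-quartile scaling, library size alone, no filter, a mean count of at least 10, the compared groups only, a replicate block, each library left out, and a fold of at least 2 for counts. The 9 genes and all lists were chosen with earlier results of these data known. Named genes are the 9, other MMP, TIMP and plasminogen genes with a mean of at least 10 CPM, the 2 largest and 2 smallest WT 24 h changes of each other list at that level, and the 3 nearest profiles (mean count at least 50). A gene that this rule names is not reported here.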

Additional observations from a re-analysis of the deposited data

Results flagged for a closer look

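The response to CFZ differed between Nrf1-KO and WT cells, by the interaction term of edgeR's quasi-likelihood test, for the following genes. Values are the Nrf1-KO minus the WT log2 change against DMSO, and the comparisons share no library between the lines. At 6 h these were Plaur (-0.61, adjusted p = 2.70e-07), Timp1 (-0.32, 0.00132) and Mmp2 (0.21, 0.000981). At 24 h they were Plau (0.89, 2.90e-06), Mmp2 (0.68, 6.29e-13), Timp3 (0.57, 6.25e-12), Plaur (-0.18, 0.0336), Timp1 (-0.79, 4.78e-10) and Timp2 (-0.80, 9.55e-16). For Mmp2, Timp1, Timp2 and Timp3 the change at 24 h had the same sign in both lines and differed in size. Plau was the gene whose 24 h fall was called in WT (-1.02) and not in Nrf1-KO (-0.13).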

How the results depend on the processing

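Without a filter, Mmp3 was called in Nrf1-KO at 24 h against DMSO (adjusted p = 0.00697) and against WT (0.0173). Depth limits Mmp13 and Mmp3, whose folds rest on few counts, and the 3 libraries per group limit small differences. Requiring a fold of at least 2 lowered the number of genes called among the 9, Mmp13 included, to 1 in WT at 6 h, 3 in WT from 6 h to 24 h, 1 in Nrf1-KO at 6 h, 2 in Nrf1-KO from 6 h to 24 h, 1 between the lines at 24 h, and 0 between the lines with DMSO, at 6 h and for both interactions (also 0 at an unadjusted p under 0.05 and with DESeq2). Mmp13, which passed the count filter only through Nrf1-KO at 24 h, was the gene between the lines at 24 h. It was also among those from 6 h to 24 h, with Mmp2 and Timp3 in WT and with Plaur in Nrf1-KO. In WT that Mmp13 call rested on 10 counts against 1. It was lost without WT 6 h replicate 1 (2.39, adjusted p = 0.0569) or replicate 2 (2.37, 0.0610). Over all genes the 2-fold rule left 1133 in WT at 6 h, 2939 at 24 h and 1421 between them, 889, 3137 and 1856 in Nrf1-KO, 584, 860 and 1440 between the lines with DMSO, at 6 h and at 24 h, and 327 and 1012 for the interactions. No other alternative, and no library left out, moved these counts by over 1.5 times.

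The 24 h change of Mmp14 in WT, not called at 0.01, was -0.0049 with DESeq2, -0.12 with upper-quartile scaling, -0.092 with library size alone (adjusted p = 0.0396), -0.043 without a filter and -0.020 with the compared groups only, and ran from -0.018 to 0.033 as libraries were left out. With library size alone, Mmp14 in Nrf1-KO at 24 h was -0.062, Mmp2 between the lines with DMSO was 0.018, and Plaur between the lines at 6 h was 0.011. As single libraries were left out, values that were not called changed sign for Mmp2 between the lines with DMSO (-0.048 to 0.013), and at 6 h for Timp2 (-0.0031 to 0.020) and Plau (-0.10 to 0.15). Upper-quartile scaling and library size alone lowered the median change of all genes by up to 0.14 and 0.18 (at 24 h against DMSO, in WT and in Nrf1-KO). The share of called genes that were higher was then, in WT at 6 h, 37.9% and 35.4% in place of 49.6%. With library size alone it was 36.4% in place of 49.7% in Nrf1-KO at 6 h, 41.6% in place of 52.0% at 24 h, 57.7% in place of 46.9% between the lines with DMSO and 60.8% in place of 49.8% at 6 h. Under these scalings 18 of the 20 matrix substrate genes fell at 24 h in WT and 17 in Nrf1-KO. Timp2 between the lines at 6 h was called with library size alone (0.085, adjusted p = 0.0271).

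Replicate numbers are shared by the groups, and whether they pair the libraries cannot be told from these values. Libraries of the same number had a mean correlation of 0.0337 over 45 pairs, from -0.0696 to 0.209. Of the 18 libraries, 11 were closest to one of their own number. With a replicate block, 8521 genes were called in WT at 6 h and 9887 at 24 h, and the only changed call among the 9 genes was Timp2 between the lines with DMSO (0.07, adjusted p = 0.0453).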

Other observations

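Serpinb2, an inhibitor of plasminogen activators, was chosen after its values were seen and failed the count filter for a test. Summed over 3 libraries its counts with DMSO, after 6 h and after 24 h were 0, 1 and 7 in WT, and 4, 2 and 37 in Nrf1-KO. Mmp10, the stromelysin gene related to Mmp3, likewise chosen afterwards, had 0, 0 and 6 in WT, and 0, 1 and 15 in Nrf1-KO. Mmp15, also chosen afterwards, went the other way, with 11, 3 and 0 in WT and 11, 4 and 0 in Nrf1-KO.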
